A study of Mus musculus with 8 samples.

Results

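The regions described here are stretches of the mouse genome at which both H3K27me3 peak lists of germline stem cells cultured for about 5 months (5M) held a peak, neither list of cells cultured for about 60 months (60M) held one, and no H3K4me3 list of either age held an overlapping peak. Merging all H3K27me3 peaks that had 1 bp or more in common gave 26634 regions, of which 19766 overlapped no H3K4me3 peak, and 1014 of these met the rule. They are called the 5M-only regions below. They make up 5.13% of the regions off H3K4me3, and the mirror rule, with both 60M lists and neither 5M list, gave 992 regions (5.02%). Without the H3K4me3 condition the share at 5M only was 6.02% of all H3K27me3 regions. The 1014 were chosen by the presence and absence of called H3K27me3 peaks, so their listing at 5M is a description and was not tested.

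Germline stem cells are the cultured form of spermatogonial stem cells, the cells from which sperm are made throughout life. The cells were wild type and came from testis of the line C57BL/6 Tg14(act-EGFP)OsbY01, called Green mice, which carries an EGFP transgene, with DBA/2 as background. At both ages the medium held FGF2, GDNF and fetal bovine serum, and the series title places the comparison within aging of these cells through Wnt7b and Jnk. Chromatin immunoprecipitation sequencing was done with antibodies to H3K4me3 and to H3K27me3 on 60M and 5M cells, in 8 libraries, 2 of each mark at each age. The labels name no separate cultures, so 60M and 5M may each stand for a single culture, and the spread between libraries may be technical. For that reason culture age and differences between cultures cannot be told apart.

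H3K27me3, a methyl mark on histone H3, is written by Polycomb repressive complex 2 and is bound by other Polycomb proteins that keep genes silent. The mark is laid down at starting sites, often CpG-rich promoters, and spreads from there into the surrounding chromatin, where the signal is lower and flatter. H3K4me3 sits on the nucleosomes of active and poised promoters. Many developmental promoters of stem cells and male germ cells carry both marks. H3K27me3 without H3K4me3 can be found beside such promoters, in silent gene bodies or in stretches between genes. Positions below are as listed, in steps of 1 kb, and fit the chromosome lengths of the mm9 build. Genes, exons, introns and UTRs are not assigned, because an mm9 annotation was not used here.

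The H3K27me3 lists held 14940 and 13037 peaks for the 60M libraries, against 12002 and 14632 peaks for the 5M libraries. Peaks off H3K4me3 numbered 11269 and 9487 in the 60M lists, against 7979 and 9265 in the 5M lists. They made up 74.1 ± 1.88% of the 60M lists and 64.9 ± 2.23% of the 5M lists (SD, n = 2). The ages did not overlap in this share. With 2 libraries against 2, the two-sided exact permutation p cannot be below 0.333, and it was 0.333 here (0.476 after Benjamini-Hochberg adjustment over 10 such tests). The mean width of peaks off H3K4me3 was 1.51 ± 0.00749 kb in the 60M libraries and 1.55 ± 0.0800 kb in the 5M libraries (SD, n = 2), and the ages overlapped. The 5M lists thus held fewer H3K27me3 peaks off H3K4me3 than the 60M lists. The files give no read totals, so depth is unknown, and the lack of a listed peak is not evidence that the mark was missing.

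Most 5M-only regions were short. Of the 1014, 422 (41.6%) spanned a single bin of 1 kb, 341 (33.6%) spanned 2 kb, 208 (20.5%) spanned 3 to 4 kb and 43 (4.24%) spanned 5 to 8 kb. Together they covered 2.02 Mb. The mean span was 1.99 kb for 5M-only regions, 1.61 kb for 60M-only regions and 3.23 kb for the 1847 regions off H3K4me3 that were in all 4 lists. Spans of at least 5 kb were found at 4.24% of the 5M-only regions, 0.706% (7 regions) of the 60M-only regions and 18.2% of the regions in all 4 lists. The 2 libraries of 5M cells did not see the same width. The peaks of a 5M-only region covered a mean of 1.47 kb in 5M library 1 and 1.86 kb in 5M library 2, with library 2 wider at 370 regions, library 1 wider at 92 and both equal at 552. The peaks of a 60M-only region covered means of 1.39 and 1.34 kb in the 60M libraries.

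The strongest bin was identical in both 5M lists at 738 regions (72.8%) and at most 1 kb apart at 981 (96.7%). The selection fixes much of this, since the 422 regions of a single bin must have the same strongest bin and the 341 of 2 kb cannot differ by more than 1 kb. Among the 251 regions of 3 kb or more, the bin was identical at 116 (46.2%) and at most 1 kb apart at 218 (86.9%). The maximum signal, in the authors' units, ran from 19.2 to 140.6 with a median of 41.7 in 5M library 1 and from 20.8 to 145.1 with a median of 46.7 in 5M library 2. Across the 1014 regions the signals of both libraries had a Spearman correlation of 0.774, a description of regions that share their libraries and, possibly, a control. Regions that were high in one 5M library were therefore mostly high in the other.

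**Figure D1:**
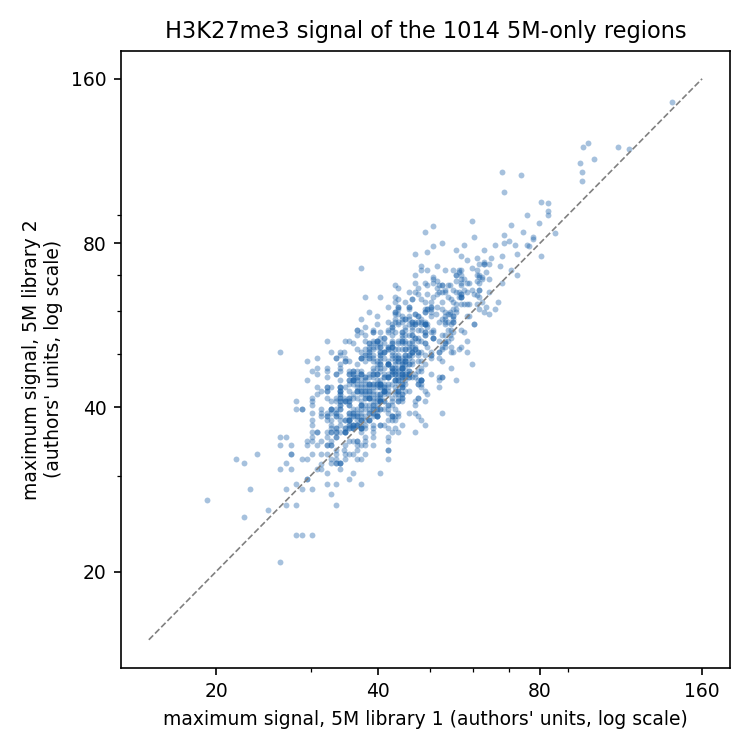
Maximum H3K27me3 signal of each 5M-only region in 5M library 1 (horizontal axis) and 5M library 2 (vertical axis), both on log scales in the authors' units, which are not known to be comparable between libraries; each of the 1014 points is a region and the dashed line marks equal values. The points form a single cloud along the line, with few above 80 in both libraries and the highest at 140.6 and 145.1.

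The 5M-only regions were weaker than the regions off H3K4me3 in all 4 lists, but not weaker in both libraries than regions off H3K4me3 in general. A region in all 4 lists had to be called in each of them, which by itself selects for strength. Strength was expressed as the percentile of the maximum signal within the library's own list, because the sources used here do not say how the authors scaled the signal. The median percentile of the 5M-only regions was 36.4 in 5M library 1 and 47.0 in 5M library 2. Over all regions off H3K4me3 listed in these libraries, which include regions in 1 list only, it was 38.4 and 38.1. The 60M-only regions had medians of 41.3 and 39.3 in the 60M libraries. The regions in all 4 lists had medians of 72.4 and 70.7 in the 60M libraries, and of 64.0 and 70.7 in the 5M libraries. Both 5M percentiles were at least 50 at 286 of the 5M-only regions, at least 90 at 18, and below 25 at 170. Stronger regions also tended to span more bins, with a Spearman correlation of 0.388 between mean percentile and span over the 1014 regions.

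The deposited p-values were near those of all H3K27me3 regions off H3K4me3 in library 1 and smaller in library 2. The 5M-only regions had to be called in both 5M lists, which favours smaller p-values. Of all regions off H3K4me3, 65.4% were in 1 list only. The −log10 p against the control begins at 3.01 in these lists and stops at 15.95. For the 5M-only regions its median was 4.26 in 5M library 1 and 5.14 in 5M library 2, and 424 regions (41.8%) in library 1 and 241 (23.8%) in library 2 stayed below 4. Over all regions off H3K4me3 listed in these libraries, the medians were 4.32 and 4.55, and 41.3% in library 1 and 37.1% in library 2 stayed below 4. The ceiling was reached by 3 and 9 of the 5M-only regions. In the 60M-only regions the medians were 4.37 and 4.19 in the 60M libraries. When peaks under a −log10 p of 5 were left out before merging, the rule gave 429 5M-only regions and its mirror 402, and 284 of the 1014 still met the rule.

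**Figure D2:**
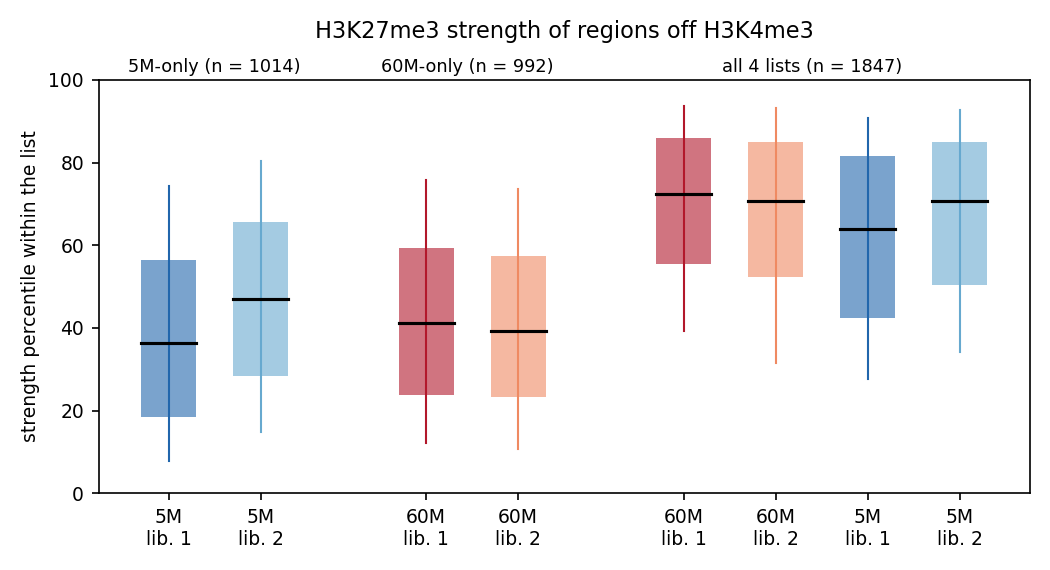
Strength percentile of the maximum H3K27me3 signal within each list (vertical axis) for 5M-only, 60M-only and all-list regions off H3K4me3, by library; bars span the 25th to the 75th percentile of the regions, lines the 10th to the 90th, and black marks are medians. The medians of the 5M-only regions (36.4 and 47.0) and of the 60M-only regions (41.3 and 39.3) lie below the 4 medians of the regions in all lists (64.0 to 72.4).

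Regions just outside the rule had higher median strength than those just inside. Calls in more lists favour stronger regions and overlap favours wider ones, so the rule itself sets part of this, and it was not tested. Among the regions off H3K4me3 in both 5M lists, 3667 in all, 1014 (27.7%) were in neither 60M list, 806 were in a single 60M list and 1847 were in both. The 806 regions just outside the rule had a median 5M percentile of 50.02 and a mean span of 2.19 kb, and the single 60M peak in them had a median percentile of 47.2. Just inside, 74 of the 5M-only regions adjoined a 60M H3K27me3 peak with no base between them, with a median percentile of 34.8 and a mean span of 1.51 kb. For H3K4me3, the 309 5M-only regions that adjoined a peak of that mark had a median percentile of 42.4 and a mean span of 1.76 kb. The 429 regions at 5M only that overlapped H3K4me3 by a single bin, just outside the rule, had a median percentile of 48.7 and a mean span of 2.50 kb. Of all 19766 regions off H3K4me3, 12923 (65.4%) were in 1 list only, so disagreement between libraries of the same age was common. With 1 library of an age left out the other decided alone, and the count of 5M-only regions became 4504 without 5M library 1, 3234 without 5M library 2 and 1542 and 1350 without 60M libraries 1 and 2.

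The strongest of the 5M-only regions, taken as the 12 with the highest mean percentile (93.3 to 99.2), fell into different kinds. The first is a 2 kb region on chromosome 11 (3001000 to 3002999), where the signal of the 5M libraries peaked at 140.6 and 145.1. The second is a 3 kb region on chromosome 18 (3008000 to 3010999), with 117.1 and 119. Both lie at the centromere-proximal end of the listed sequence, where repeats adjoin the assembly. Their signal was at the top of the lists, but their −log10 p against the control was 5.59 and 8.33 on chromosome 11, and 4.19 and 4.43 on chromosome 18. They are the only regions among the 22 with a mean percentile of at least 90 whose −log10 p was under 6 in 5M library 1.

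The next regions had strong support against the control. On chromosome 5 a single bin (120280000 to 120280999) peaked at 111.7 and 119.9 in the 5M data, with −log10 p at the ceiling of 15.95 in both. It adjoined an H3K4me3 peak and lay 2 kb from a 60M H3K27me3 peak. On chromosome 7 a region of 5 kb (69862000 to 69866999) had maxima of 98.2 and 121.8, also at the ceiling in both. It stood apart, 150 kb from the nearest 60M H3K27me3 peak and with no H3K4me3 peak within 100 kb.

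A 1 kb region on chromosome 16 (91312000 to 91312999) had maxima of 100.8 and 114.2 and, like the region on chromosome 5, adjoined H3K4me3 and lay 2 kb from 60M H3K27me3. A second region on chromosome 7 (86699000 to 86699999) had 96.3 and 119.9, at 4 kb from 60M H3K27me3. A second region on chromosome 18 (37607000 to 37609999) had 95 and 112.3, at 28 kb. Chromosome 15 held the next, at 101644000 to 101645999, 101292000 to 101292999 and 100886000 to 100888999, with mean percentiles of 96.22, 95.97 and 93.66. The last of the 12 were on chromosome 13 (95394000 to 95398999, maxima of 80.2 and 95.3) and, in a second place on chromosome 5, at 120895000 to 120896999 (82.8 and 91.5). Of the 12, 6 lay within 10 kb of an H3K27me3 peak listed at 60M and 2 adjoined an H3K4me3 peak, so strong regions were found both near H3K27me3 listed at 60M and far from it.

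At 11 of the 5M-only regions the peaks covered a mean of at least 5 kb over both 5M libraries. They had mean percentiles of 60.4 to 92.9, 2 lay within 10 kb of a 60M H3K27me3 peak, and 2 adjoined H3K4me3. None of the 5 regions above a mean of 5 kb lay within 10 kb of a 60M H3K27me3 peak, against 2 of the 6 with exactly 5 kb. On chromosome 14 (103450000 to 103457999) peaks covered 8 kb in 5M library 1 and 7 kb in 5M library 2, at 11 kb from 60M H3K27me3 and next to an H3K4me3 peak. On chromosome 1 (143441000 to 143448999) they covered 5 and 8 kb, with maxima of 68.7 and 99.1, at 68 kb from 60M H3K27me3. On chromosome 10 (128665000 to 128670999) they covered 6 kb in both, with 73.8 and 106.6, at 70 kb from 60M H3K27me3 and 269 kb from any H3K4me3 peak. A second wide region on chromosome 1 spanned 23578000 to 23583999, and the one on chromosome 5 spanned 127373000 to 127378999. Of the regions with a mean of 5 kb, those with the higher percentiles were at 28300000 to 28304999 on chromosome 7, at 109672000 to 109676999 on chromosome 3 and at 73252000 to 73256999 on chromosome 13, at 43, 95 and 16 kb from 60M H3K27me3. The other 3 with that mean were on chromosome 17 (89006000 to 89010999), 6 kb from 60M H3K27me3, on chromosome 2 (10932000 to 10937999), 2 kb from it, and on chromosome 5 (115039000 to 115045999), 48 kb from it.

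In the neighbourhood of part of the 5M-only regions H3K27me3 was still listed at 60M. A 60M H3K27me3 peak lay within 10 kb of 439 regions (43.3%, exact 95% interval 40.2 to 46.4%, counting error only), and 74 of these adjoined it. The median distance was 16 kb, and 187 regions (18.4%) had none within 100 kb. For comparison, 520 of the 992 60M-only regions (52.4%, 49.3 to 55.6%) lay within 10 kb of a 5M peak, at a median of 9 kb. The share over all regions off H3K4me3 was not computed, so 43.3% cannot be called high or low for such regions. The share within 10 kb was 35.8% in the weakest 254 of the 5M-only regions, 38.7% and 43.5% in the next sets of 253 and 55.1% in the strongest 254, a description with no test. Strong 5M-only regions were thus more often close to H3K27me3 that was still listed at 60M than weak ones. The share was 32.2% when peaks up to 1 kb apart were merged, which removes the closest cases by construction.

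The type of neighbour also differed. An H3K27me3 region listed in all 4 libraries, on or off H3K4me3, lay within 10 kb of 191 5M-only regions (18.8%), 266 60M-only regions (26.8%) and 1008 regions in all 4 lists (54.6%). Another region listed at 5M only, counted likewise, lay within 10 kb of 122 5M-only regions (12.03%), against 46 60M-only regions (4.64%). A region listed at 60M only, counted likewise, lay within 10 kb of 37 5M-only regions (3.65%), against 107 60M-only regions (10.8%). Of the regions in all 4 lists, 140 (7.58%) had a neighbour listed at 5M only and 149 (8.07%) had one listed at 60M only. Compared with these, regions of one age more often had neighbours of the same age and less often of the other age. This is a description, since neighbouring bins in a library are not independent. The 5M-only regions themselves seldom lay side by side, with 40 pairs within 10 kb and no larger group.

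Coverage by H3K27me3 around the 5M-only regions differed between the ages over a short range. In the first 5 kb on either side, outside the region, 4.13 and 3.46% of the bases were covered in the 60M libraries, against 5.71 and 7.97% in the 5M libraries. From 5 to 20 kb the values were 3.74 and 3.30% at 60M, against 3.78 and 5.20% at 5M. From 20 to 50 kb they overlapped, with 2.61 and 2.20% at 60M, against 2.38 and 3.18% at 5M. The whole lists covered 29.5 and 25.4 Mb at 60M, against 25.8 and 34.9 Mb at 5M, and 5M library 2 had the highest coverage in each of these distances around the 5M-only regions. Around the 60M-only regions the first 5 kb had 8.45 and 7.62% at 60M, against 5.11 and 6.84% at 5M. Around the regions in all 4 lists it had 13.97 and 12.6% at 60M, against 11.8 and 15.87% at 5M. In the first 5 kb and from 5 to 20 kb, both 60M libraries covered less around the 5M-only regions than around the other sets, but not from 20 to 50 kb, where the 60M-only regions had 2.56 and 2.14%. The rule leaves out any region that a 60M peak reaches into, so it also lowers 60M coverage in the flanks next to the region. Part of the short-range difference is thus set by the rule, and the flank values were not tested.

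**Figure D3:**
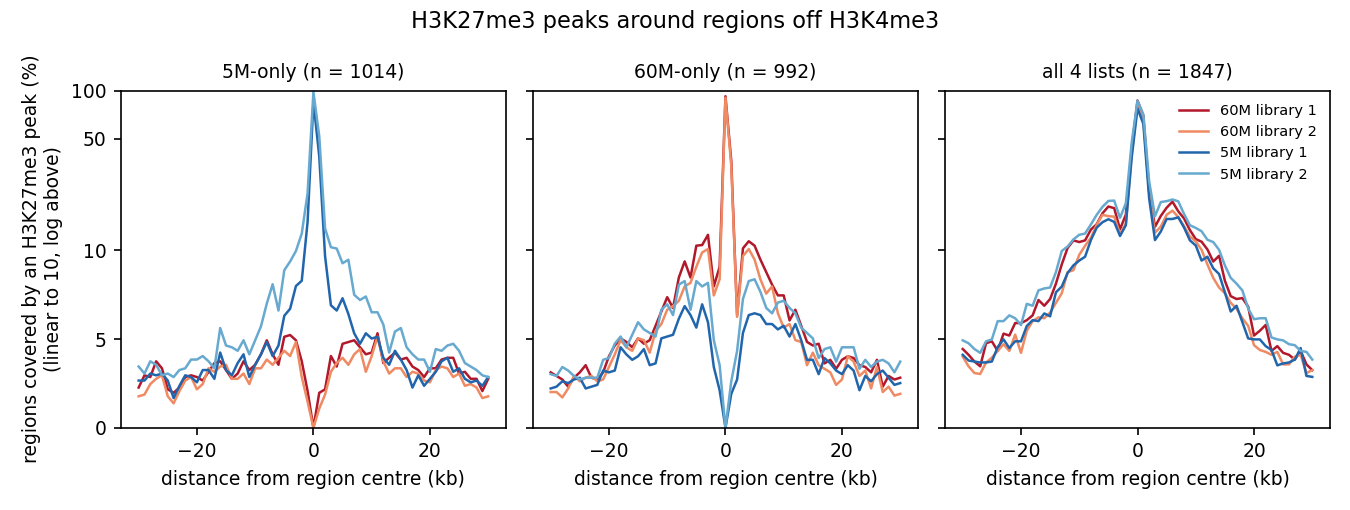
Share of regions covered by an H3K27me3 peak (vertical axis, linear to 10% and logarithmic above) by distance from the region's centre in 1 kb bins (horizontal axis), for the 60M libraries (red and orange) and the 5M libraries (dark and light blue). At the centre of the 5M-only regions 60M coverage is 0 by the rule, against 85.1 and 97.8% in 5M libraries 1 and 2, where the rule requires a peak in the region.

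The regions did not overlap H3K4me3, but many were not far from it. Of the 1014, 309 (30.5%) adjoined an H3K4me3 peak of some list, and 555 (54.7%) had one within 5 kb. The median distance was 4 kb, 459 regions (45.3%) were over 5 kb away, and 50 were over 100 kb away, the farthest at 512 kb. "Off H3K4me3" therefore describes them better than remoteness from the mark. Closeness to H3K4me3 was not particular to them. Over all 19766 regions off H3K4me3, 57.4% had an H3K4me3 peak within 5 kb and the median distance was 3 kb. Of these, 5.07% were over 100 kb away, against 4.93% of the 5M-only regions. The 60M-only regions adjoined H3K4me3 at 347 of 992 (34.98%) and the regions in all 4 lists at 875 of 1847 (47.4%), while the share over all 19766 regions off H3K4me3 was 27.8% (5486 regions), below that of each of these sets. Those beside it had a median mean percentile of 42.4, against 41.9 for the other 705.

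H3K4me3 next to the 5M-only regions was listed less often at 60M. Counted in each H3K4me3 library alone, 187 and 188 of the 1014 regions (18.4 and 18.5%) adjoined a peak in the 60M libraries, against 254 and 281 (25.05 and 27.7%) in the 5M libraries. On average this was 18.5 ± 0.0697% at 60M and 26.4 ± 1.88% at 5M (SD, n = 2), a difference of -7.89 percentage points. The ages did not overlap, and the exact two-sided permutation test gave p = 0.333 (adjusted p = 0.476 over 10 tests), the smallest value possible here, so the design could not show a difference by this test. Within 5 kb the shares were 40.6 ± 0.907% at 60M and 48.6 ± 1.26% at 5M. The rule used these same H3K4me3 lists to require that no peak overlapped, at either age. An H3K4me3 peak that reached into a region removed it, and one that stopped at its border did not. The rule can therefore affect these shares, and its part in the difference was not tested. The H3K4me3 lists held 43699 and 41637 peaks over 98.3 and 95.5 Mb at 60M. At 5M they held 45933 and 47415 peaks over 96.6 and 101.1 Mb. Whether the H3K4me3 and H3K27me3 lists of an age were called against the same control is not given in the labels, and the part of a shared control in neighbouring calls of both marks was not tested.

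The 60M-only regions and those in all 4 lists differed in the opposite direction. Of the 60M-only regions 32.01 ± 1.21% adjoined H3K4me3 in the 60M libraries and 29.0 ± 0.356% in the 5M libraries, and of the regions in all 4 lists 44.02 ± 0.766% at 60M and 41.5 ± 0.383% at 5M (SD, n = 2). Over all 19766 regions off H3K4me3 the shares were 22.2 ± 0.415% at 60M and 23.3 ± 0.862% at 5M. Within 5 kb the 60M-only regions had 61.8 ± 1.85% at 60M and 60.0 ± 0.998% at 5M, and the ages overlapped. The regions in all 4 lists had 67.4 ± 0.191% at 60M and 64.1 ± 0.191% at 5M within 5 kb. Over all 19766 regions off H3K4me3 the shares within 5 kb were 49.3 ± 1.43% at 60M and 51.4 ± 0.894% at 5M. This difference of -2.05 points had the same direction as that of the 5M-only regions, whose shares were lower at both ages. The H3K4me3 lists are longer at 5M. With each H3K4me3 list shortened to its 41637 strongest peaks, an alternative added after the data were examined, the 5M-only regions had 18.1 ± 0.558% at 60M and 22.2 ± 0.628% at 5M, a difference of -4.09 points. The 60M-only regions then had 31.9 ± 0.998% at 60M and 27.6 ± 0.285% at 5M. The regions in all 4 lists had 43.7 ± 1.26% at 60M and 39.7 ± 0.0383% at 5M. All regions off H3K4me3 had 21.9 ± 0.0215% at 60M and 21.5 ± 0.451% at 5M. The direction at the 5M-only regions was thus the same at equal list lengths and smaller by over 1.5 times.

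Part of the neighbouring H3K4me3 was itself listed at 5M only. Such a region, with a peak in both 5M and neither 60M H3K4me3 list, adjoined 73 of the 1014 5M-only regions (7.20%, exact 95% interval 5.69 to 8.97%). It adjoined 4 of the 60M-only regions (0.403%, 0.110 to 1.03%), 7 of the regions in all 4 lists (0.379%, 0.153 to 0.779%) and 408 of all regions off H3K4me3 (2.06%). H3K4me3 regions at 60M only adjoined 7 5M-only regions (0.690%) and 10 60M-only regions (1.01%). Seen from the other side, 70 of the 317 H3K4me3 regions beside a 5M-only region were themselves 5M-only (22.1%, 17.6 to 27.1%). This share was 1.15% of the 348 beside 60M-only regions and 7.50% of the 5066 beside any region off H3K4me3, and 10.1% of all 54585 H3K4me3 regions were 5M-only (60M-only 4.46%). The intervals cover counting error only. At equal H3K4me3 list lengths 5.03% of the 5M-only regions adjoined one.

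**Figure D4:**
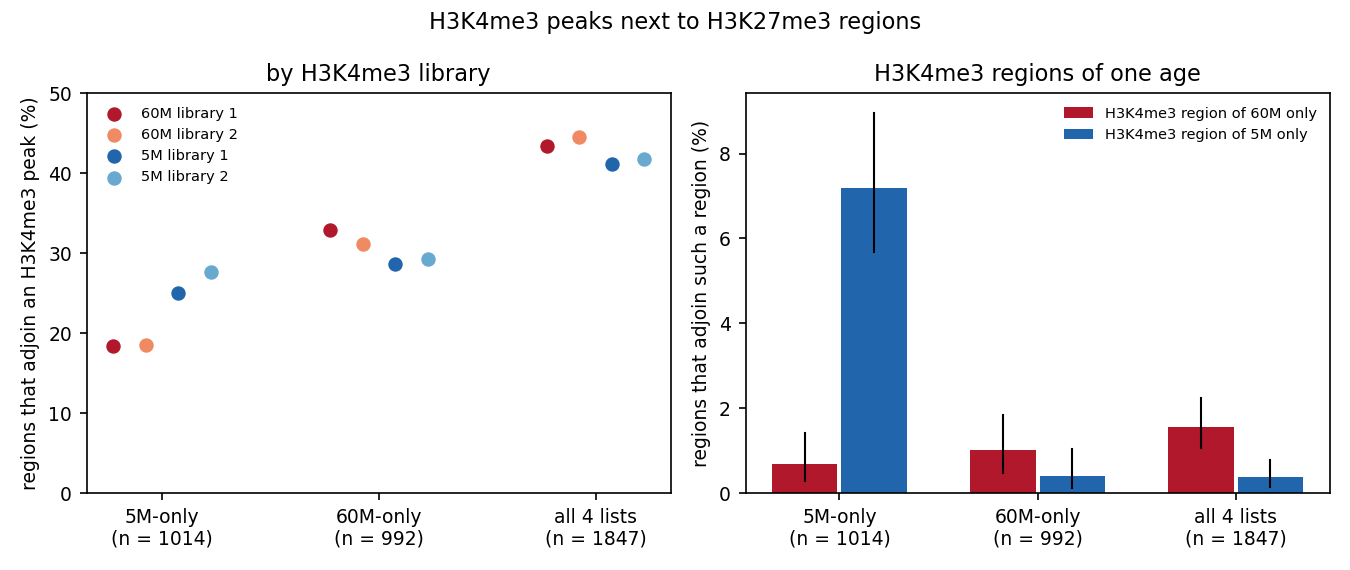
Left, share of H3K27me3 regions off H3K4me3 that adjoin a peak of each H3K4me3 library (points; 60M in red and orange, 5M in blue); right, share that adjoin an H3K4me3 region of 60M only (red) or 5M only (blue), with exact 95% binomial intervals as lines. At the 5M-only regions both 60M libraries (18.4 and 18.5%) lie below both 5M libraries (25.05 and 27.7%), and 7.20% adjoin an H3K4me3 region of 5M only.

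The H3K4me3 peaks in these pairs were small. The 70 H3K4me3 regions had a median span of 1 kb and median strength percentiles of 14.8 and 22.4 in the 5M libraries, against 18.4 and 25.6 for all 5M-only H3K4me3 regions. Their H3K27me3 partners had a median mean percentile of 42.0, close to the 42.4 of all 5M-only regions beside H3K4me3, and lay at a median of 25 kb from 60M H3K27me3. The pairs were spread over the range of strength, with 15, 21, 23 and 14 in the sets of 254, 253, 253 and 254 regions from the weakest to the strongest. In the strongest pair, on chromosome 5, H3K27me3 (121467000 to 121468999) had 5M maxima of 80.2 and 75.7, and H3K4me3 in the bin before it (121466000 to 121466999) had 52 and 57.1. On chromosome 7, H3K27me3 (106816000 to 106817999) had 55.8 and 65, and H3K4me3 (106815000 to 106815999) had 65.5 and 85.2. On chromosome 8, H3K27me3 (24723000 to 24724999) had 53.9 and 57.4, and H3K4me3 (24721000 to 24722999) had 95.4 and 96.4. These maxima are the authors' values and rank peaks within a list only, and the pairs shown were chosen after their values were seen.

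At the other extreme stood 5M-only regions with no H3K27me3 at 60M for over 100 kb. The strongest of these 187 were those on chromosome 18 from 3008000 and on chromosome 7 from 69862000, described above. Next came chromosome 7 at 31886000 to 31890999 (maxima of 76.4 and 78.9), 185 kb from 60M H3K27me3 and 1 kb from H3K4me3. Chromosome 15 followed at 91741000 to 91742999 (57.1 and 71.3), and chromosome 10 at 5261000 to 5263999 (57.1 and 70). The region on chromosome 5 at 10558000 to 10559999 (57.8 and 61.8) lay 360 kb from 60M H3K27me3 and 120 kb from H3K4me3.

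The 5M-only regions were found on all 19 autosomes and on the X chromosome. As a share of each chromosome's H3K27me3 regions off H3K4me3, they were highest on chromosome 3 (81 regions, 7.40%) and chromosome 10 (77, 6.84%), and lowest on chromosome 9 (37, 3.74%). The mirror set had 46 regions (4.20%) on chromosome 3, 50 (4.44%) on chromosome 10 and 57 (5.76%) on chromosome 9. Chromosome 2 had 57 5M-only and 84 60M-only regions. On the X chromosome there were 12 5M-only regions (1.18%, exact 95% interval 0.613 to 2.06%) and 5 60M-only regions (0.504%), and the X held 1.35% of all regions off H3K4me3. At equal H3K27me3 list lengths the X share of the 5M-only regions was 0.526%, over 1.5 times lower than the value without shortening. The first 10% of the length of the autosomes held 7.29% of the 5M-only regions, 5.78% of the 60M-only regions and 3.64% of the regions in all 4 lists, and the last 10% held 16.6, 17.9 and 24.5%. The share over all regions off H3K4me3 was 6.85% in the first and 17.5% in the last 10%, close to the 5M-only regions.

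**Figure D5:**
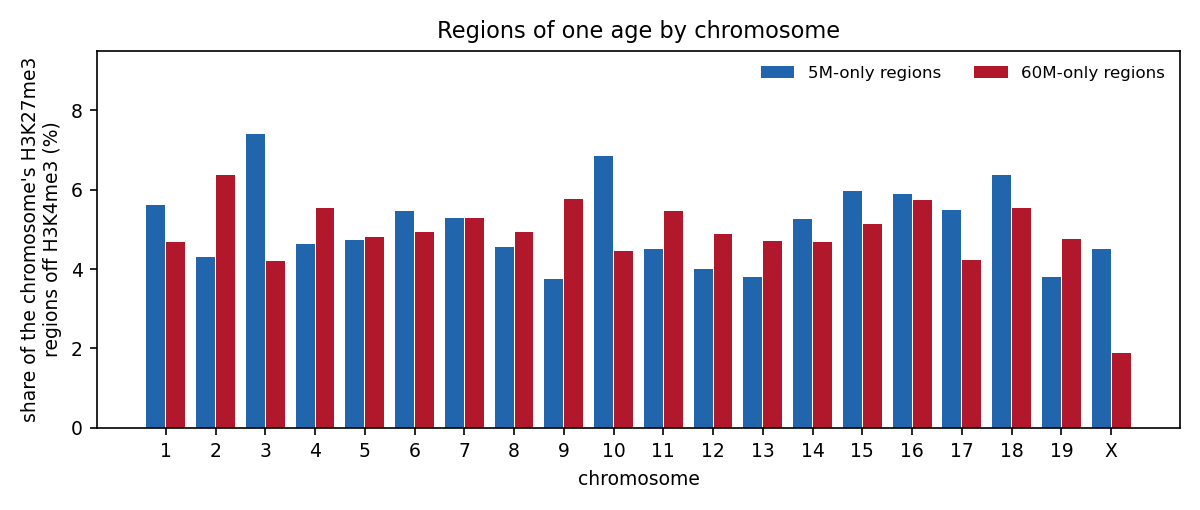
Share of each chromosome's H3K27me3 regions off H3K4me3 (vertical axis, %) that were 5M-only (blue) or 60M-only (red), by chromosome (horizontal axis). The 5M-only share is highest on chromosomes 3 (7.40%) and 10 (6.84%), and on chromosome 9 it is 3.74% against 5.76% for the 60M-only regions.

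Clusters of 5M-only regions were small. The 1014 regions fell into 736 windows of 1 Mb, and 534 of these held a single region. The most in a window was 5, reached in 5 windows. On chromosome 4 (22000000 to 22999999) the 5 regions lay between 22625000 and 22757999, with mean percentiles of 27.3 to 78.3, in a window with 0 60M-only regions and 0 regions in all 4 lists. On chromosome 3 (120000000 to 120999999) they lay between 120518000 and 120838999, with percentiles of 39.9 to 79.1, with 0 60M-only regions and 1 region in all 4 lists. On chromosome 15 (25000000 to 25999999) the window held 5 5M-only regions, 0 60M-only regions and 0 regions in all 4 lists. The other windows, from 125000000 on chromosome 10 and from 121000000 on chromosome 14, also held 2 and 1 60M-only regions, and 4 and 3 regions in all 4 lists. A lack of 60M-only regions in a window did not mean a lack of H3K27me3 peaks at 60M. On chromosome 15, 4 of the 5 regions lay at most 5 kb from a peak of a 60M list, whereas on chromosome 4 the 5 regions lay 15 to 85 kb from one.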

How the data were processed

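The authors deposited separate peak lists for the 8 libraries. The tools named, per the submitters' processing notes, are CASAVA 1.8.4 and Bowtie 1.1.2, with mm10 as build; which program called peaks is not given in these sources. Per the labels' protocols, chromatin was sonicated, in some cases after MNase, without saying in which libraries. The deposited positions run past mm10 on 9 of 20 chromosomes (1331 peaks) and fit mm9 except for a last bin on 1 chromosome that overhangs by 687 bp (lengths from GenomeInfoDb 1.38.1). Per the file headers, each peak has a maximum signal, 2 −log10 p-values (with and without the control), a q-value and a width; the q-value was not used. Depth is unknown.

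Merging, overlaps and distances were computed with Python 3.11.15, numpy 2.4.6, pandas 2.3.3, scipy 1.17.1 and matplotlib 3.10.9, and the code was tested on simulated lists. Adjoining means 0 bases between borders. Strength is the percentile of the signal within a list. Shares have exact (Clopper-Pearson) 95% intervals, and values per library an exact two-sided permutation test. The regions, rules and sets were chosen with earlier results of these data known. Named regions are the 12 strongest, the 8 widest (ties by strength; the 3 others tied in width were added after their values were seen), the 6 strongest over 100 kb from 60M H3K27me3 and the densest 1 Mb windows. The pairs with H3K4me3 and all counts of adjoining H3K4me3 were added after the data were examined. Alternatives were the merging distance, list length, thresholds, the H3K4me3 requirement and each library left out. Gene names, gene lists and cell type markers, planned for an annotation of the same build, were not used here, and no region is assigned to a gene.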

Additional observations from a re-analysis of the deposited data

Results flagged for a closer look

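H3K4me3 beside H3K27me3 regions of one age differed in opposite directions between the 60M and 5M lists. The share of 5M-only regions that adjoined an H3K4me3 peak differed by -7.89 percentage points between the 60M and 5M lists, and both 60M libraries lay below both 5M libraries. For the 60M-only regions it differed by 3.02 points, with both 60M libraries above both 5M libraries. The difference between these 2 sets was not tested. At equal H3K4me3 list lengths the values were -4.09 and 4.23 points. The regions in all 4 lists differed by 2.54 points, and by 3.95 at equal lengths. The direction at the 60M-only regions was thus not particular to them. Within 5 kb the 60M-only regions differed by 1.81 points, and the ages overlapped. No group had the 4 or more libraries that a check for outlying libraries needs.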

How the results depend on the processing

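Across the settings, 57 of 84 recomputed values stayed within the replicate spread, the counting interval or 1.5 times the count, and the difference in adjoining H3K4me3 kept its sign in each, whereas the 5M-only count divided by the 60M-only count fell on either side of 1 (0.944 with peaks up to 1 kb apart merged). The 5M-only and 60M-only counts were 459 and 340 (ratio 1.35) with H3K4me3 over 5 kb away, and 429 and 402 with a −log10 p of at least 5. At equal H3K27me3 list lengths the ratio was 1.14, against 1.02 as reported, the X share was 0.526% and the share within 10 kb of 60M H3K27me3 was 39.2%, which was 32.2% when peaks up to 1 kb apart were merged. At equal H3K4me3 list lengths the difference in adjoining H3K4me3 was -4.09 points and the share beside a 5M-only H3K4me3 region was 5.03%, against -7.98 points and 7.28% without regions in the first 1 Mb of listed sequence. With 1 library left out and the rule run again, the counts ran from 1019 to 4504 (5M-only) and from 995 to 5580 (60M-only). Their ratio ran from 0.242 to 3.55. The remaining library of an age then decides alone, which raises its count by construction. With an H3K27me3 library left out in this way, the share within 10 kb ran from 39.5 to 49.8%. The difference in adjoining H3K4me3 then ran from -7.36 to -5.67 points, and the share beside a 5M-only H3K4me3 region from 5.32 to 6.90%. With an H3K4me3 library left out, that difference and that share were computed on the same 1014 regions, which the library had helped to choose. The difference then ran from -9.22 to -6.56 points, and the share reached up to 9.17%. Of the 1014 regions, 788 still met the rule with peaks up to 1 kb apart merged and 879 at equal list lengths. No paired analysis was possible because the labels do not say that libraries of the same replicate number share a culture, batch or day. Depth is unknown, so which of the regions more reads would have called in the other age cannot be told.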
